A study of Mus musculus with 6 samples.

Results

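Bone morphogenetic protein (BMP) signalling was examined through 10 of its genes among the 24594 genes of an RNA-seq count table. They were the ligand Bmp2, the receptors Bmpr1a and Bmpr2, the signal transducers Smad1 and Smad5, the inhibitory Smads Smad6 and Smad7, and the target genes Id1, Id2 and Id3. The genes were taken by symbol and grouped by known role. They were put together with the difference between the groups below already known, so their changes are a description, and no test over them is given. All 10 passed the filter on low counts, with 64 to 6490 reads per gene and library.

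The samples were epithelial organoids of mouse proximal small intestine, small structures grown from adult crypts in a gel. All carried a doxycycline-inducible human YAP transgene together with a red histone reporter (TetON-hYAP/H2B-mCherry), and the series describes the YAP as a constitutively active S127A mutant. The doxycycline group (3 libraries) received 1 µg/ml for 48 h from passaging, and the control group (3 libraries) carried the same transgene without the drug. The culture medium described for the series held EGF at 50 ng/ml, Noggin at 100 ng/ml and R-spondin1 at 500 ng/ml in both groups, so a secreted antagonist that binds BMP ligands was present throughout. No sample had doxycycline without the transgene, the cells that drive the inducible promoter are not described, and animal ages are not given. The protocol, shared with other assays of the series, states 1 individual per adult sample, but not whether the groups share animals, so p-values measure the spread between these libraries.

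BMP ligands bind a complex of type I receptors, such as Bmpr1a, and type II receptors, such as Bmpr2. The complex phosphorylates Smad1 and Smad5, which enter the nucleus with Smad4 and switch on targets that include the Id genes and the feedback inhibitors Smad6 and Smad7. Id proteins lack a DNA-binding region and hold E proteins and related helix-loop-helix factors away from DNA. In the intestine, BMP signalling is known to be strong along the villus and weak at the crypt base, where antagonists from the mesenchyme protect the stem cells.

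Library totals were 11258768 to 16803062 reads in the doxycycline group and 8533452 to 14643817 in the control group. Values are CPM, the read count of a gene scaled to the size of its library with TMM factors, and a gene is called when its adjusted p is under 0.05 in edgeR's quasi-likelihood test over 12909 genes. Of these genes 45.3% were called, 21.7% higher and 23.6% lower with doxycycline. Scaled by total counts alone, 25.4% of called genes lay above control, where TMM scaling gave 47.9%, and the median log2 change of all genes was -0.52 in place of -0.08. Control replicate 3 stood apart: genes with under 2 kb of exon lay at a median log2 deviation of 0.57 from the other control libraries and genes over 5 kb at -0.58. The doxycycline libraries lay between -0.11 and 0.087 in these length classes. Control replicates 1 and 2, each compared with a mean that includes control replicate 3, lay between -0.29 and 0.32. Without control replicate 3, 4632 genes were called higher and 4654 lower, against 2800 and 3050 with all libraries. The epithelial markers Epcam, Cdh1, Vil1, Krt8, Krt18, Krt19, Cdx1 and Cdx2 summed to 17880 to 19070 CPM with doxycycline and 4619 to 5273 CPM in controls. The keratins Krt8, Krt18 and Krt19 made up most of the doxycycline sum, at means of 4691, 1953 and 8879 CPM with doxycycline and 730.6, 261.5 and 1607 CPM in controls. The intestinal transcription factor gene Cdx1 fell to 16.5 CPM with doxycycline, against 292.6 CPM in controls, and Epcam and Cdx2 were not called.

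With doxycycline, the ligand Bmp2, both inhibitory Smads and all 3 Id genes were higher, by 6.45 to 35.1 times in mean CPM. The receptors were not called, and of the transducers Smad1 was 0.634 times its control level while Smad5 was not called. In all, 6 of the 10 genes were called higher, beside 21.7% of all genes, and 1 lower, beside 23.6%; in either direction it was 7 of 10 beside 45.3%. The median log2 fold change over the 10 genes was 2.83, beside -0.08 over all genes tested. By role, the median was 5.12 for the ligand, 0.57 for the receptors, -0.74 for Smad1 and Smad5, 3.17 for the inhibitory Smads and 3.53 for the Id genes. The libraries of the groups did not overlap for 8 of the 10 genes, and for 61.3% of all genes.

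**Figure D1:**
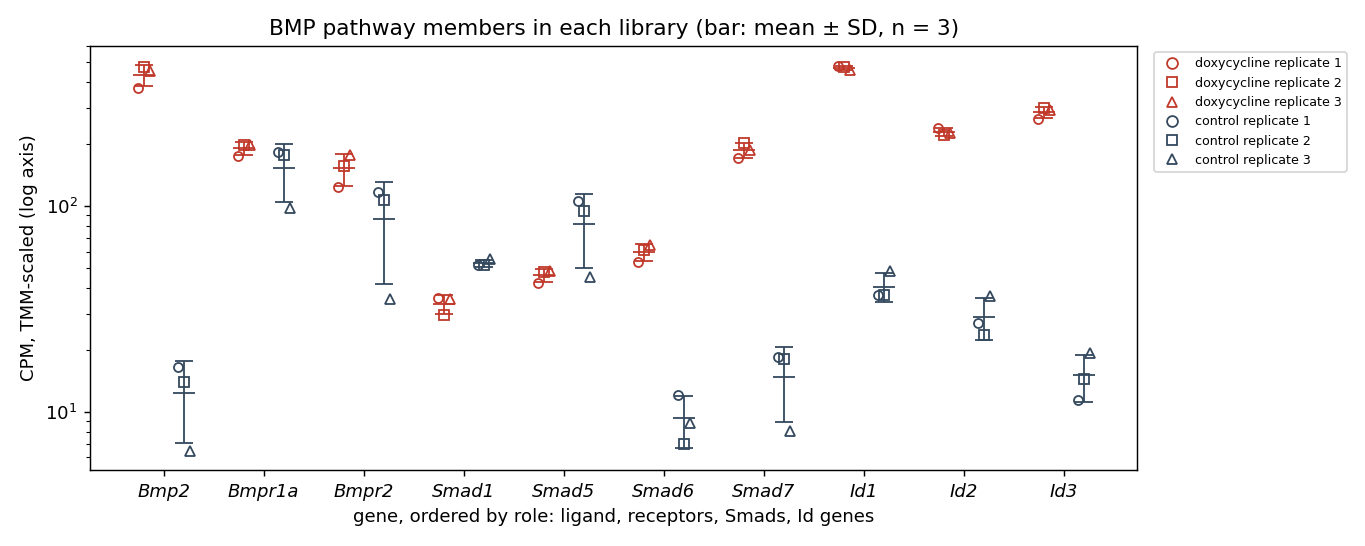
CPM of the 10 BMP genes in each library on a log axis, with doxycycline libraries in red to the left of control libraries in dark grey; the bars mark the mean ± SD of 3 libraries. The doxycycline libraries lie above every control library for Bmp2, Bmpr2, Smad6, Smad7 and the Id genes, below them for Smad1, and among them for Bmpr1a and Smad5.

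Bmp2 (Entrez 12156, chromosome 2, 133552159 to 133562896, GRCm38.p6), which encodes a secreted ligand made by differentiated intestinal epithelium, had 376, 472 and 451 CPM in the doxycycline libraries and 16.6, 14.0 and 6.44 CPM in the control libraries. The lowest doxycycline library was above every control library by a wide margin, and control replicate 3 was the lowest of all. Mean CPM was 432.9 ± 50.7 with doxycycline and 12.3 ± 5.26 in controls (SD, n = 3 each). The log2 fold change was 5.12 (SE 0.387), and it lay between 4.68 and 5.40 under the 14 other fits, each of which called it higher.

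Bmp2 was also the largest part of the ligand mRNA in the doxycycline libraries. Per kilobase of exon, the 14 BMP and Gdf ligand genes examined summed to 174.1, 207.0 and 198.3 CPM per kb with doxycycline and to 31.4, 30.9 and 22.4 CPM per kb in controls. Bmp2 made up 60.7, 64.2 and 64.0% of that level in the doxycycline libraries and 14.8, 12.8 and 8.11% in the control libraries. Bmp3 held a mean share of 2.35% with doxycycline and 37.6, 36.4 and 15.1% in the control libraries. Bmp7 held 1.97% with doxycycline and 28.0, 27.1 and 40.1% in the control libraries. Bmp3 thus led the pool in control replicates 1 and 2 and Bmp7 in control replicate 3, where Bmp6 came next at 23.3%. Bmp8b, a further ligand of the family, held 28.1 ± 2.36% with doxycycline and 11.7 ± 3.19% in controls (SD, n = 3 each). These shares compare levels between genes and depend on the exon lengths used.

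**Figure D2:**
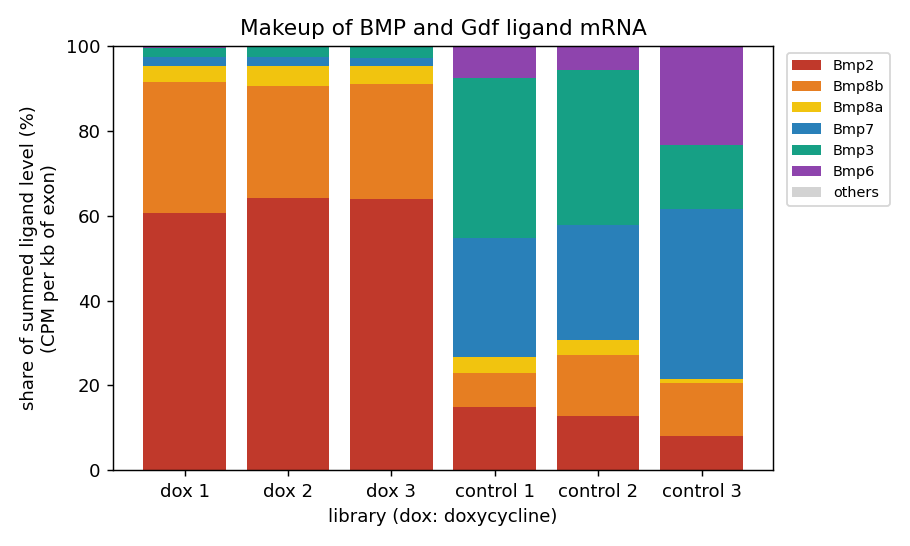
Share of each ligand in the summed level of 14 BMP and Gdf ligand genes (percent of CPM per kb of exon) in every library. Bmp2 holds 60.7 to 64.2% in the doxycycline libraries and 8.11 to 14.8% in the control libraries.

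Neither receptor was called. Bmpr1a (chromosome 14, 34411061 to 34503336), the type I receptor, had 174, 198 and 199 CPM with doxycycline and 183, 177 and 97.6 CPM in controls. The groups overlapped, and the low value was control replicate 3. The log2 fold change was 0.32 (SE 0.257), not called in any fit, and it turned to -0.12 with total counts as the scaling. Bmpr2 (chromosome 1, 59764279 to 59878081), the type II receptor, had 124, 156 and 178 CPM with doxycycline and 117, 107 and 35.4 CPM in controls. The doxycycline libraries were all above the controls, but the lowest of them only just above control replicate 1. Its log2 fold change of 0.81 (SE 0.427) was not called, and it was 0.46, then called higher, without control replicate 3.

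Smad1 and Smad5 carry the signal from the receptors to the nucleus. Smad1 (chromosome 8, 79338395 to 79399428) had 35.7, 29.4 and 35.4 CPM with doxycycline and 51.5, 51.7 and 55.3 CPM in controls. The groups were apart, and the control libraries lay close together, control replicate 3 included. Its log2 fold change was -0.66 (SE 0.154), and the call was lost without doxycycline replicate 2 (-0.56) or doxycycline replicate 3 (-0.69). Smad5 (chromosome 13, 56703010 to 56742378) had 42.4, 47.7 and 48.1 CPM with doxycycline and 106, 94.5 and 45.4 CPM in controls. Control replicate 3 fell inside the doxycycline range while the other controls were well above it. The log2 fold change of -0.83 (SE 0.311) was not called, and without control replicate 3 it was -1.11 and called lower.

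The inhibitory Smads went the other way. Smad6 (chromosome 9, 63953076 to 64022085), which blocks Smad1 and Smad5 in particular, had 53.5, 61.1 and 64.9 CPM with doxycycline and 12.1, 6.93 and 8.86 CPM in controls. No control library came near the doxycycline range, and the log2 fold change was 2.68 (SE 0.242). Smad7, which acts on receptors of both the BMP and TGF-beta branches, had 171, 202 and 187 CPM with doxycycline and 18.4, 17.9 and 8.05 CPM in controls. Here too control replicate 3 was the lowest library, and the log2 fold change was 3.65 (SE 0.337). Both genes were called higher in all 14 other fits. Per kilobase of exon, the level of Smad6 and Smad7 together was 4.88 ± 0.478 times that of Smad1 and Smad5 with doxycycline and 0.298 ± 0.0309 times in controls (SD, n = 3 each). Summed, the inhibitory Smads stood at 62.8 ± 4.98 CPM per kb with doxycycline and 6.50 ± 1.72 CPM per kb in controls (SD, n = 3 each). Smad1 with Smad5 stood at 12.9 ± 0.605 CPM per kb with doxycycline and 21.6 ± 4.09 CPM per kb in controls.

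The 3 Id genes had the closest doxycycline libraries of the 10 genes. Id1 (chromosome 2, 152736251 to 152737410) had 479, 472 and 459 CPM with doxycycline and 36.9, 36.7 and 48.2 CPM in controls. Its log2 fold change was 3.53 (SE 0.187). Id2 (chromosome 12, 25093799 to 25096092) had 240.0, 221 and 225 CPM with doxycycline and 27.0, 23.6 and 36.3 CPM in controls, a log2 fold change of 2.98 (SE 0.21). Id3 (chromosome 4, 136143822 to 136145392) had 265, 298 and 291 CPM with doxycycline and 11.5, 14.4 and 19.2 CPM in controls, a log2 fold change of 4.25 (SE 0.243). For each of them control replicate 3 was the highest control library, yet far under the lowest doxycycline library. All were called higher in each of the 14 other fits. Within the summed Id level per kilobase, Id1 held 56.1 ± 1.15% with doxycycline and 59.9 ± 1.62% in controls (SD, n = 3 each). Id3 held 30.9 ± 1.73% with doxycycline and 19.9 ± 2.26% in controls, and Id2 held 13.0 ± 0.661% with doxycycline and 20.2 ± 1.56% in controls.

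**Figure D3:**
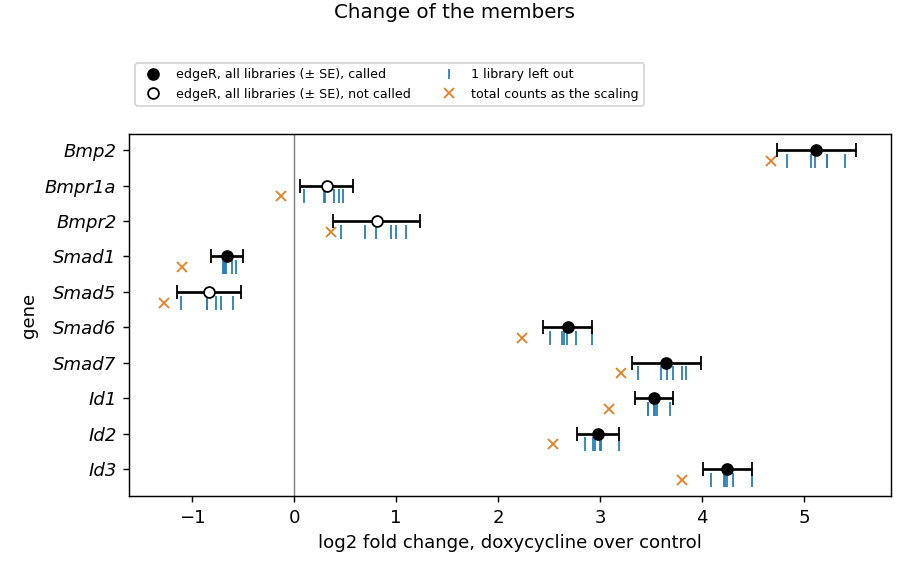
Log2 fold change of each BMP gene, doxycycline over control, with its SE; filled points are called and open points are not, blue ticks show the change with 1 library left out and orange crosses the change with total counts as the scaling. Bmp2, Smad6, Smad7 and the Id genes lie above 2 in every setting drawn, while the receptors, Smad1 and Smad5 lie within 1.3 of 0.

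RefSeq promoter windows (GRCm38.p6) were used for 7 of the 10 genes: Id2, Id3, Smad6, Bmpr1a, Bmpr2, Smad1 and Smad5. The 250 bases before an annotated start are printed for Id2, Id3 and Smad6, which rose, and for Bmpr2, which was not called. The letters can so be read beside the values. The starts used for Smad6, Bmpr1a and some Smad5 windows lie inside the gene bounds given above. Searched on both strands were GGCGCC, a GC-rich element bound by Smad1 and Smad5 (its own reverse complement), CAGAC, a Smad-binding element (GTCTG on the other strand), and GGAATG, the element of the TEAD partners of YAP (CATTCC on the other strand). None of the motifs overlapped another in the sequences printed, and capitals mark each match.
Id2 (chr12:25096093-25096342, minus strand): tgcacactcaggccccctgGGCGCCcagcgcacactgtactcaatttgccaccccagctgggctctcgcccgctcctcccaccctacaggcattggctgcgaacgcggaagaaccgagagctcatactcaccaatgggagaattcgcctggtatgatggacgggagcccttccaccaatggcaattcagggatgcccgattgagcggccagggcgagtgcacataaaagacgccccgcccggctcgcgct
Id3 (chr4:136143572-136143821, plus strand): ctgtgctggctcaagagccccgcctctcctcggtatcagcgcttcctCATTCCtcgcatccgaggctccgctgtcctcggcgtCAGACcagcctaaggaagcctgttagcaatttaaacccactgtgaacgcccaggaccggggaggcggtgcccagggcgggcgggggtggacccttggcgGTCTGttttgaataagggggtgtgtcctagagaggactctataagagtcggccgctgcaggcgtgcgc
Smad6 (chr9:64022060-64022309, minus strand): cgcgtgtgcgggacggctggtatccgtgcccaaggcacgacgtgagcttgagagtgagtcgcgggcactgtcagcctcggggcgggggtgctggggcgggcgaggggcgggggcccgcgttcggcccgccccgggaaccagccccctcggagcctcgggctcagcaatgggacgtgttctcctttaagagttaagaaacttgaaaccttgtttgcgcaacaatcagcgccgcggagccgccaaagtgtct
Bmpr2 (chr1:59764029-59764278, plus strand): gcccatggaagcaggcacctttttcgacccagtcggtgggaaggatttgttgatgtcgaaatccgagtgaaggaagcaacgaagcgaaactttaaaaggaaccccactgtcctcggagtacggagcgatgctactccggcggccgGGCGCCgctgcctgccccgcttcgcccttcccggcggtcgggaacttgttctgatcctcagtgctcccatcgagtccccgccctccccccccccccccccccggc

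The Id2 window held GGCGCC at position -231, where -1 is the last base before the start, and no match to the other motifs. The Id3 window held CAGAC at -167, its reverse complement at -68 and CATTCC at -203. The Smad6 window held no match, and the Bmpr2 window held GGCGCC at -105. Of 32851 windows of 250 bases, 9.59% held GGCGCC, 42.2% CAGAC and 12.6% GGAATG on either strand. The matches are a description of these letters. The windows of Bmpr1a (at -198) and of Bmpr2, neither called, held GGCGCC as that of Id2 did. So did a window of Smad5 (at -19), also not called, and another Smad5 window held CAGAC at -21. The Smad1 window held no match.

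Ordered by level per kilobase of exon, the doxycycline libraries ran from Id1 (405 ± 8.80 CPM per kb) and Id3 (222.9 ± 13.5) through Bmp2 (122 ± 14.3), Id2 (93.7 ± 4.17), Smad7 (42.6 ± 3.47), Bmpr1a (31.5 ± 2.30), Smad6 (20.1 ± 1.95) and Bmpr2 (11.8 ± 2.10) to Smad1 (6.48 ± 0.685) and Smad5 (6.42 ± 0.445; SD, n = 3 throughout). Only Smad1 and Smad5 overlapped as neighbours in that order. In controls the order began with Id1 (35.0 ± 5.69 CPM per kb) and Bmpr1a (25.2 ± 7.87), and Bmp2 (3.47 ± 1.48), Smad7 (3.38 ± 1.34) and Smad6 (3.12 ± 0.871) were the lowest, with overlapping values. Id2, Id3, Smad5 and Smad1 lay between 10.2 and 11.9 CPM per kb on average in controls, also with overlapping neighbours, above Bmpr2 (6.72 ± 3.46).

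Control replicate 3 departed from the other controls along the exon length of the genes. Its log2 ratio to the mean of control replicates 1 and 2 was 0.39 for Id1, 0.52 for Id2 and 0.57 for Id3, which have 1160 to 2438 bases of exon. It was -1.66 for Bmpr2 (12899 bases), -1.14 for Smad5 (7174 bases) and -0.88 for Bmpr1a (6046 bases). The other members did not follow length closely, with -1.25 for Bmp2 (3555 bases), -1.18 for Smad7 (4379 bases), -0.099 for Smad6 (2971 bases) and 0.10 for Smad1 (5173 bases). The part of length in the member values was not tested. Without this library the log2 fold changes were 4.83 for Bmp2, 3.69 for Id1, 3.18 for Id2, 4.49 for Id3, 2.64 for Smad6 and 3.37 for Smad7.

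**Figure D4:**
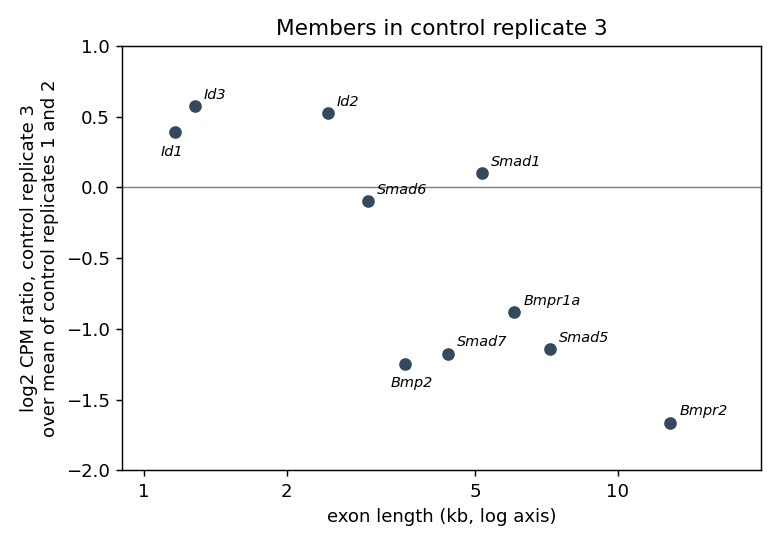
Log2 ratio of control replicate 3 to the mean of control replicates 1 and 2 for each BMP gene, against its exon length in kb on a log axis. The short Id genes lie at 0.39 to 0.57 and the longest gene, Bmpr2, at -1.66. Between them length is not followed closely, with Bmp2 at -1.25, Smad7 at -1.18, Smad6 at -0.099 and the longer Smad1 at 0.10.

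Cell type markers differed between the groups as well. Of 12 enterocyte markers 8 were called higher and 1 lower, with a summed level of 19740 to 21000 CPM with doxycycline and 2709 to 4347 CPM in controls. All 10 crypt base stem cell markers were called lower (141.8 to 145.2 CPM summed with doxycycline, 4450 to 6066 CPM in controls), as were 10 of 12 secretory cell markers (212.5 to 243.9 CPM with doxycycline, 2705 to 4749 CPM in controls). Of all genes tested, 21.7% were called higher and 23.6% lower. These sums rested mostly on few genes. In controls Olfm4 averaged 3965 CPM of the crypt base sum and Lyz1 2607 CPM of the secretory sum. With doxycycline Alpi (6055 CPM), Apoa1 (6535 CPM) and Apoa4 (3424 CPM) led the enterocyte sum. Chgb, not called, led the secretory sum there (177.5 CPM). The part of these cell types in the BMP values was not tested, and in bulk samples fewer cells of a type and less RNA per cell cannot be told apart. Markers of mesenchyme and endothelium, cell types outside the epithelium that use BMP signalling, were near 0. The 12 mesenchymal markers summed to 1.21 to 1.70 CPM with doxycycline and 4.43 to 6.61 CPM in controls, with Col1a1, Dcn, Lum and Foxl1 at 0 in every library. Vim (0.826 CPM with doxycycline, 4.855 CPM in controls) was called lower and made up most of the control sum. The 8 endothelial markers summed to 2.83 to 2.97 CPM with doxycycline and 1.40 to 2.01 CPM in controls, with Kdr at 0 throughout. Among them Tek (1.397 CPM with doxycycline, 0.427 CPM in controls) was called higher. The 8 immune markers summed to 30.3 to 32.3 CPM with doxycycline and 22.9 to 45.8 CPM in controls. Csf1r, a macrophage receptor gene, made up most of that sum (25.1 CPM with doxycycline, 26.8 CPM in controls, not called). Ptprc, Cd3e, Cd79a and Adgre1 were at or near 0 in every library, and Lyz2 did not pass the filter. Itgam (3.38 CPM with doxycycline, 2.80 CPM in controls) and Cd68 (1.82 CPM with doxycycline, 2.54 CPM in controls) were not called.

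Around these genes, 67 others of the pathway were listed by role. Of these, 41 passed the filter, 10 were called higher and 12 lower, so 22 of 41 were called beside 45.3% of all genes. The median log2 fold change of the 41 was 0.06. With total counts as the scaling 4 were called higher and 16 lower, beside 1747 higher and 5131 lower of all 12909 genes. Without control replicate 3 it was 16 higher and 18 lower, beside 4632 higher and 4654 lower of 13278 genes tested. In the sentences that follow, p is edgeR's adjusted p over all 12909 genes, and n = 3 libraries per group.

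Of 13 other ligands, 5 were tested. Bmp8b had 158, 161 and 158 CPM with doxycycline and 7.55, 13.1 and 8.15 CPM in controls, a log2 fold change of 4.05 (SE 0.257, adjusted p = 9.93e-05 by edgeR). Bmp8a rose as well, with a log2 fold change of 3.25 (SE 0.526, adjusted p = 0.00292). Bmp8a and Bmp8b are close copies that lie near each other on chromosome 4, so their separate values are uncertain. In the other direction, Bmp7 had 13.1, 16.2 and 12.7 CPM with doxycycline and 32.2, 30.7 and 32.9 CPM in controls (log2 change -1.19, SE 0.173, adjusted p = 0.00172). Bmp6 had 2.63, 1.48 and 1.84 CPM with doxycycline and 8.42, 6.31 and 18.7 CPM in controls. Its log2 change was -2.49 (adjusted p = 0.00624); with control replicate 3, the highest library, left out it was -1.90. Bmp3 averaged 33.6 ± 5.09 CPM with doxycycline and 65.2 ± 34.9 CPM in controls and was not called (adjusted p = 0.12); without control replicate 3, at 25.0 CPM, its log2 change was -1.32 (adjusted p = 1.93e-09). Bmp4, the ligand typical of the mesenchyme under the epithelium, had 0, 4 and 0 reads with doxycycline and 0 in all controls.

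Of 10 other receptors and co-receptors, 6 were tested. The BMP co-receptor gene Rgmb had 33.0, 30.4 and 29.3 CPM with doxycycline and 274, 236 and 171 CPM in controls, a log2 fold change of -2.88 (SE 0.221, adjusted p = 1.71e-04 by edgeR). Rgmb also stands in the list of crypt base stem cell markers, which all fell. The type II receptors that BMPs share with activins differed from each other in direction. Acvr2a averaged 133 ± 3.74 CPM with doxycycline and 61.7 ± 21.3 CPM in controls (log2 change 1.11, adjusted p = 0.0161), and its call was lost with total counts and without any single doxycycline library (adjusted p = 0.051 to 0.0767). Acvr2b averaged 1.62 ± 0.587 CPM with doxycycline and 6.17 ± 0.926 CPM in controls (log2 change -1.91, adjusted p = 0.00375). The type I receptor gene Acvr1 had 17.7 ± 1.18 CPM with doxycycline and 15.5 ± 3.05 CPM in controls and was not called (adjusted p = 0.481), and neither was Acvrl1, at 1.59 ± 0.332 CPM with doxycycline and 1.17 ± 0.743 CPM in controls (adjusted p = 0.457). Smad4, the shared partner of Smad1 and Smad5, averaged 80.0 ± 9.06 CPM with doxycycline and 96.7 ± 22.2 CPM in controls (log2 change -0.27, adjusted p = 0.332), and was called lower without control replicate 3 (-0.44, adjusted p = 3.20e-04).

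Secreted antagonists were mostly low: of 15 examined, 11 did not pass the filter, and 6 of those, Nog among them, had no read in any library. Nbl1, which encodes a secreted BMP antagonist of the DAN family, had 144, 139 and 131 CPM with doxycycline and 7.37, 8.78 and 9.16 CPM in controls, a log2 fold change of 4.03 (SE 0.173, adjusted p = 3.15e-05 by edgeR). The groups were far apart with little spread. Dand5, of the same family, fell to 14.3 ± 1.60 CPM with doxycycline, against 23.7 ± 1.79 CPM in controls (adjusted p = 0.014), a call lost without doxycycline replicate 1 (0.0635) or 2 (0.0712). Fstl1, a secreted glycoprotein that binds BMPs, had 0, 0 and 4 reads with doxycycline and 130, 91 and 144 reads in controls. Its log2 change was -6.31 (SE 0.781, adjusted p = 9.94e-04). Without doxycycline replicate 3, a floor of 3 reads over the remaining doxycycline libraries, which had 0, put it 62.9-fold lower. This is a rough bound that leaves out the spread between libraries. Twsg1, which binds BMPs and chordin, averaged 70.6 ± 4.72 CPM with doxycycline and 72.6 ± 34.6 CPM in controls (adjusted p = 0.937).

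All 19 intracellular regulators were tested, and 6 were called higher and 2 lower, where 21.7% of all genes tested were called higher and 23.6% lower. Tob1, an antiproliferative protein that restrains BMP Smads in bone, had 656, 656 and 690 CPM with doxycycline and 176, 182 and 83.9 CPM in controls (log2 change 2.18, SE 0.308, adjusted p = 0.00167 by edgeR). The Smad phosphatase genes Ppm1a (371 ± 5.79 CPM with doxycycline, 227.7 ± 21.0 CPM in controls, adjusted p = 0.0084) and Ctdsp1 (212 ± 7.50 CPM with doxycycline, 124 ± 22.2 CPM in controls, adjusted p = 0.0109) rose. Both calls were lost with total counts (adjusted p = 0.18 and 0.151), and that of Ctdsp1 also without doxycycline replicate 2 (0.0528). Bambi, a decoy receptor without a kinase domain, had 0.404, 0.37 and 0.141 CPM with doxycycline and 2.22, 3.16 and 3.83 CPM in controls, a log2 change of -3.33 (SE 0.481, adjusted p = 0.00172) at 10 reads in all over the doxycycline libraries. Xiap, which joins BMP receptors to the kinase Tak1, averaged 478 ± 45.4 CPM with doxycycline and 194 ± 116 CPM in controls (adjusted p = 0.0742; 8.34e-09 without control replicate 3). Ctdsp2 averaged 348 ± 22.6 CPM with doxycycline and 291 ± 44.4 CPM in controls (adjusted p = 0.262).

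Of 5 other target genes 3 were tested, and 2 fell while none rose, beside 23.6% lower and 21.7% higher among all genes tested. Id4, the remaining gene of the Id family, had 2, 2 and 0 reads with doxycycline and 48, 50 and 20 reads in controls. Its log2 change was -4.52 (SE 0.694, adjusted p = 0.00235 by edgeR), or -3.83 without doxycycline replicate 3. Atoh8, a helix-loop-helix factor induced by BMP in liver, averaged 1.21 ± 0.688 CPM with doxycycline and 6.03 ± 0.541 CPM in controls (log2 change -2.27, adjusted p = 0.00453). Msx1, a homeobox gene, averaged 1.17 ± 0.407 CPM with doxycycline and 0.967 ± 0.697 CPM in controls (adjusted p = 0.756). Msx2 and Tlx2 did not pass the filter.

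Of the 3 E proteins that Id proteins bind, 2 were called lower, beside 23.6% of all genes tested. Tcf3 had 36.3, 33.4 and 35.7 CPM with doxycycline and 84.8, 95.3 and 162 CPM in controls, with no overlap, a log2 fold change of -1.70 (SE 0.268, adjusted p = 0.00262 by edgeR). Tcf4 averaged 17.5 ± 1.94 CPM with doxycycline and 42.7 ± 8.93 CPM in controls (log2 change -1.29, adjusted p = 0.00264). Tcf12 averaged 64.1 ± 3.63 CPM with doxycycline and 96.6 ± 23.1 CPM in controls and was not called (log2 change -0.59, adjusted p = 0.0554). Leaving out control replicate 3 gave -0.76 with an adjusted p of 1.39e-07. Per kilobase of exon, the summed level of Id1, Id2 and Id3 was 32.9, 35.0 and 32.0 times that of Tcf3, Tcf4 and Tcf12 in the doxycycline libraries, and 1.13, 1.09 and 1.10 times in the control libraries. Control replicate 3 lay between the other controls in this ratio, though both of its sums were higher. The Id sum was 71.5 CPM per kb there, against 51.8 and 52.6 in control replicates 1 and 2. The E protein sum was 64.8 CPM per kb, against 46.0 and 48.2.

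**Figure D5:**
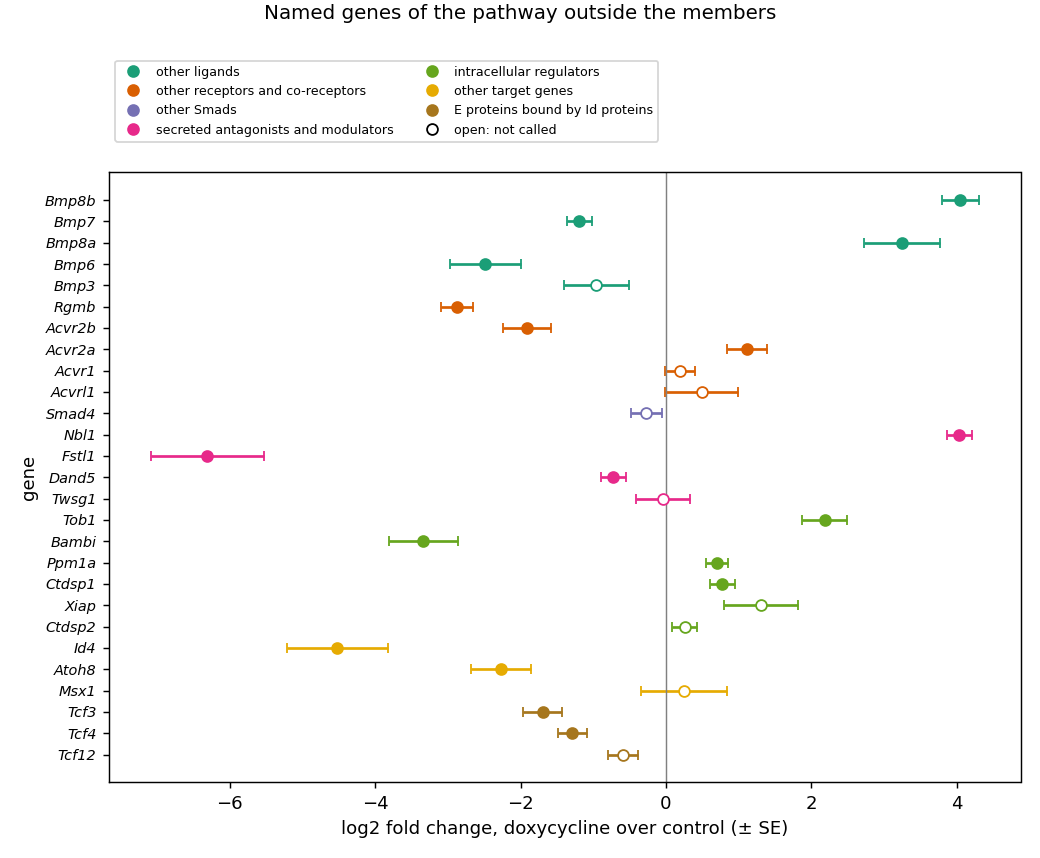
Log2 fold change with SE, doxycycline over control, of the named pathway genes outside the 10, coloured by role; open points were not called. Bmp8b and Nbl1 lie near 4, and Fstl1, Id4 and Bambi below -3.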

How the data were processed

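The authors deposited whole-number read counts per Entrez gene for 6 libraries. Per the labels' protocols, RNA was prepared with TruSeq kits and sequenced on a NextSeq, and the submitters' processing notes name mm10 as the build. The aligner, counter, annotation and strand use are not given in the sources used here, and of the 10 genes 2 share exon bases with another gene in GENCODE M21 (Bmpr1a and Smad5). Symbols and positions came from RefSeq's GRCm38.p6 table, which matched 24570 of 24594 IDs. The other 24 IDs held 2.88 to 4.43% of a library's counts and were kept.

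Counts were fitted with edgeR 4.0.16 in R 4.3.3: expression filter by group, TMM factors (0.843 to 0.879 with doxycycline, 1.16 to 1.17 in controls), robust quasi-likelihood F-test and Benjamini-Hochberg adjustment over all 12909 genes. The SE is the log2 fold change over the square root of F. Levels per kilobase divide CPM by the union of exons in GENCODE M21 basic. Libraries of a group differed by more than sampling noise (chi-square per degree of freedom 3.79 to 141). The fit was tested on simulated counts. Most 2-fold changes placed there were not called. Far fewer genes were changed there than were called in the data, which makes the adjustment stricter, so that share does not carry over. A gene that was not called may still differ.

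The 10 genes, the role lists and the markers were chosen with earlier results of these data known. Named were the 10 genes and, per role, up to 4 called genes with the smallest adjusted p and up to 2 uncalled genes with the highest CPM; Bmp4, Nog, Msx2 and Tlx2 were added to the text with their values known. The fit was repeated with total counts or RLE factors as the scaling, with TMM factors made without the 20 genes of most counts, with other count filters, with DESeq2 1.42.0 and limma-voom (limma 3.58.1), with a block for the replicate number, with single libraries left out and at a threshold of 0.01.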

Additional observations from a re-analysis of the deposited data

How the results depend on the processing

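Bmp2, Smad6, Smad7, Id1, Id2 and Id3 were called higher under all 14 refits and at a threshold of 0.01. The number of the 10 genes called lower was 1 (Smad1); it was 2 with total counts or DESeq2, where Smad5 joined, 0 at a threshold of 0.01, and 0 to 2 with 1 library left out. With total counts, 1747 genes were higher and 5131 lower over all genes, and 4 other pathway genes were higher and 16 lower. At 0.01, 1780 genes were higher and 1697 lower over all genes, and 5 other pathway genes were higher. Leaving out 1 library gave 1945 to 4632 genes higher and 1888 to 4654 lower, 6 to 7 of the 10 genes higher, and 5 to 16 other pathway genes higher and 10 to 18 lower; the cause was not tested. Uncalled changes turned sign with total counts for Bmpr1a (-0.12), Acvr1 (-0.25), Ctdsp2 (-0.19) and Msx1 (-0.19), and Msx1 lay between -0.071 and 1.03 with 1 library left out. Twsg1 turned to 0.10 with limma-voom and 0.091 with the replicate block, and lay between -0.37 and 0.22 with 1 library left out. Measured from the median of all genes, a comparison chosen after the data were seen, Bmpr1a was at 0.40 with TMM and with total counts. A change of scaling moves all genes nearly alike, so this match was fixed in advance and says nothing of Bmpr1a itself. Ordered without length, Bmp2 ranked 2 in place of 3 with doxycycline, and in controls Id1 ranked 5 in place of 1.

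Whether replicate numbers pair the libraries could not be told. Deviations from the group means correlated at -0.30, 0.12 and -0.19 for numbers 1, 2 and 3 across genes. Control replicate 3, which stood apart, enters every control deviation, so these correlations cannot show or exclude pairing. With the replicate block 2261 genes were higher and 2248 lower, 6 of the 10 genes were higher and 0 lower (Smad1, at -0.66, was no longer called), and 9 other pathway genes were higher and 11 lower. Depth limits Id4, Bambi and Fstl1, with at most 10 reads over the doxycycline libraries.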
